A study of Mus musculus with 28 samples.

Results

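CD8+ T cells that met antigen without a break were compared with CD8+ T cells that met none. The comparison used the 3 arrays titled as continuous stimulation and the 3 titled as unstimulated on day 5, out of 28 arrays in the series, and all 12393 genes that could be named. The cells were CD8+ OT1-TCR transgenic T lymphocytes of the C57BL/6N background, so that all carry the same transgenic receptor. Every group was kept in culture for 2 days with 5 ng/ml of the survival cytokine IL7. For the continuous group the plates were coated with anti-CD3 and anti-CD28 antibodies at 10 µg/ml, and the cells then spent 3 days in hosts that express the antigen, given in the labels as dtg-O or -M without saying which host a sample had. The unstimulated cells had no antibody and then spent 3 days in an antigen-free host. The groups therefore differ both in the culture and in the host, and these cannot be told apart in this comparison. A further group, called transient in the labels, had the antibodies in culture and then 3 days in an antigen-free host (3 arrays), and it is used below to separate the last 3 days from the first 2. CD4+ AND-TCR transgenic cells went through the same conditions (3 continuous, 2 transient and 2 unstimulated arrays). Cells were recovered from spleen and subcutaneous lymph nodes by flow cytometry, and their RNA was amplified in 2 rounds before hybridisation to Affymetrix Mouse 430A2 arrays. The series text calls the replicates independent and biological. Values are log2 signals per gene, so 1 unit is a doubling, and a signal shows change within a gene but not which of several genes is more abundant.

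A naive CD8+ T cell is small and quiescent, survives on IL7, and recirculates through lymph nodes. Engagement of its T cell receptor together with CD28 starts growth, division and the production of granule proteins, above all granzymes and perforin, and of cytokines with which it kills or alerts other cells. When antigen does not go away, T cells of this lineage are known to keep inhibitory receptors such as PD-1 on their surface, which dampen receptor signalling.

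The coreceptor genes followed the label of the cells. Cd8a, which encodes the alpha chain of the CD8 coreceptor, lay at 11.97 ± 0.24 in the unstimulated and 12.63 ± 0.12 in the continuous arrays, and Cd8b1, its beta chain, at 12.50 ± 0.12 and 11.96 ± 0.07 (mean ± SD, n = 3 in each group, as throughout). Cd8a was called higher and Cd8b1 lower under continuous antigen (limma, adjusted p = 0.0023 and 0.0022). Cd4 lay at 6.94 ± 0.28 and 6.33 ± 0.13, and Zbtb7b, the transcription factor of the CD4 lineage, at 7.53 ± 0.25 and 7.33 ± 0.15. Of the 4 CD4 T cell markers, which also include Cd40lg and Gata3, 1 rose and 1 fell, with a highest difference of 1.43.

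Several arrays stood apart in measures that are no part of the comparison. The difference between the 3' and the 5' probe sets of beta-actin, a control that is larger when the 5' part of a transcript is poorly represented, was 1.92 to 2.44 in the unstimulated arrays and 0.312 to 0.557 in the continuous arrays, and the same difference for GAPDH was 3.14 to 3.50 against 1.29 to 1.57. The transient CD8 arrays lay at 0.656 to 1.02 for beta-actin. Among the CD4 arrays it was the transient group that was high, at 2.42 to 2.73, while the unstimulated CD4 arrays lay at 0.669 to 0.984 and the continuous ones at 0.401 to 0.618. Both measures thus move with the CD8 comparison, and the CD4 transient arrays are the only other day 5 group with values as high. For each gene it was therefore recorded whether both CD4 transient arrays lay below, or above, all 5 other CD4 day 5 arrays, and these counts are given beside the results. The first unstimulated array stood apart for genes of other blood cells: the mean of 16 myeloid markers was 9.76 there against 5.82 and 7.19 in the other unstimulated arrays and 6.27 to 7.65 in the continuous arrays, that of 8 neutrophil markers 8.96 against 4.54 and 4.82 and 4.39 to 5.80, that of 5 plasma cell markers 10.16 against 7.01 in both and 7.23 to 8.80, and that of 14 B cell markers 8.03 against 5.53 and 6.39 and 5.96 to 7.61. No marker of the myeloid, neutrophil or plasma lists was called between the groups, but that array widens the spread against which they were tested. Without it the median difference went from −1.08 to 0.24 for neutrophil and from −0.71 to 0.06 for myeloid markers. Other lists held calls, beside 21.4% of all genes that rose and 25.9% that fell. Of 8 dendritic cell markers 3 fell and 1 rose, of 9 stromal and endothelial markers 4 fell, and of 14 B cell markers 1 rose. The largest dendritic fall was Ccr7 (−1.68), which is also a homing receptor of T cells. Of 7 red cell markers 2 fell and 1 rose, and of 6 platelet markers 1 fell. Of 7 NK cell markers 2 rose, of 6 regulatory T cell markers 3 rose, and of 7 pan T cell markers 3 rose and 1 fell. The third unstimulated array had the highest interferon-induced genes. The third continuous array was the one nearest to the unstimulated group in 3262 of 5867 called genes (55.6%). In pools of cells such as these, fewer cells of a kind and less RNA per cell cannot be told apart.

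**Figure D1:**
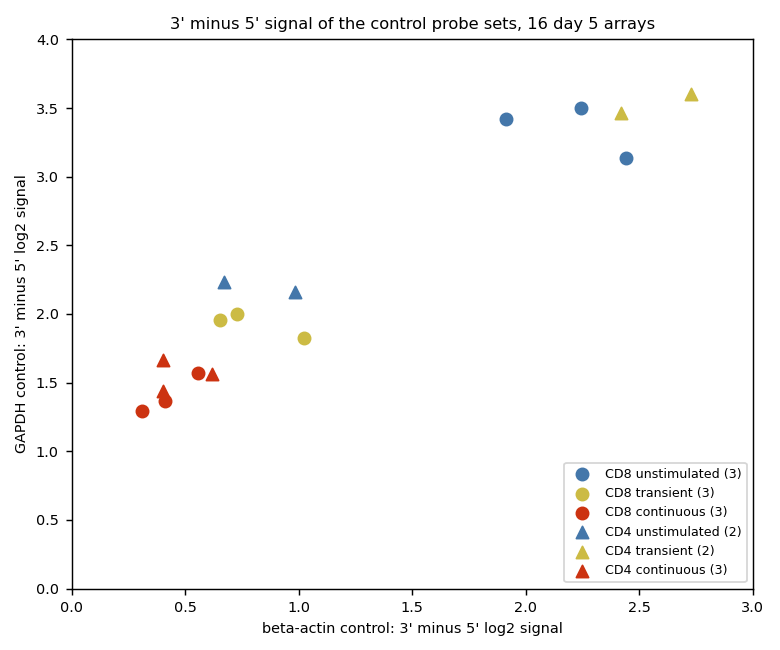
Each point is one of the 16 day 5 arrays, placed by its 3' minus 5' log2 signal of beta-actin (horizontal axis) and of GAPDH (vertical axis), with circles for CD8 and triangles for CD4 arrays and a colour for each condition. Beta-actin lies between 1.92 and 2.44 in the unstimulated CD8 arrays and between 2.42 and 2.73 in the transient CD4 arrays, and at or below 1.02 in all other arrays.

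Nearly as many genes moved as did not. Of 12393 genes, 5867 (47.3%) were called at an adjusted p below 0.05 (limma, two-sided), 2658 of them higher under continuous antigen (21.4%) and 3209 lower (25.9%). The rises were larger than the falls: 1291 genes rose by at least 1 log2 unit and 805 fell by as much, and 81 against 24 moved by at least 3 units. The median difference over all genes was −0.12 with a median standard error of 0.15, and 5560 of the called genes had groups of arrays that did not overlap, as 6834 of all genes did (55.1%). Without the first unstimulated array 5643 genes were called, and without the third continuous array 5569. Of the 2658 rises, 1501 (56.5%) were genes for which the CD4 transient arrays lay below all other CD4 arrays, which held for 16.8% of all genes, and of the 3209 falls 1407 (43.8%) were genes for which they lay above, which held for 20.1% of all genes. How much of these calls goes with the control signal was not tested. In the CD8 arrays of the comparison the control signal and the group do not overlap. With the beta-actin difference as a covariate in the fit, 132 genes were called, at a median standard error of 0.54, and with the GAPDH difference 0 were called by limma, with 1049 at an unadjusted p below 0.05. Of 104 named called genes 7 kept the call with beta-actin and 0 with GAPDH. Gzmb (2.0, limma adjusted p = 0.77), Gzmk (3.1, 0.43) and Il7r (−0.43, 0.96) were among those that lost it with beta-actin.

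The 10 largest rises among called genes with separate arrays were in Gzmb, Plscr1, Ifng, Gzmk, Lrr1, Psmb7, Cd200, Ccna2, Bcat1 and Zbtb32. The 10 largest falls were in Ccr9, Igfbp4, Tdrp, Socs3, Il6ra, Rab6b, Afp, Rflnb, Il7r and Acss2. Plscr1, a phospholipid scramblase, lay at 5.04, 4.24 and 3.91 in the unstimulated and 9.57, 10.19 and 9.32 in the continuous arrays. That is a difference of 5.30 ± 0.29 (± SE) or 39.3-fold (adjusted p = 4.46e-08). The transient arrays lay at 8.88 to 9.25, above every unstimulated array and below every continuous one.

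Granzyme genes were among the largest rises. Of 20 measured cytotoxic granule genes 12 rose and none fell, with a median difference of 0.52 against −0.12 over all genes. Gzmb, the granzyme that triggers apoptosis in the target cell, had signals of 6.84, 6.20 and 7.12 in the unstimulated arrays and 13.10, 13.35 and 9.92 in the continuous arrays. Its lowest continuous array, the third, was still above every unstimulated one, and the mean difference was 5.40 ± 0.69 or 42.2-fold (adjusted p = 2.85e-05). Gzmk, a tryptase-like granzyme, lay at 6.69, 7.14 and 7.18 without stimulation and at 12.67, 12.63 and 10.46 under continuous antigen. The groups did not overlap, and the difference was 4.92 ± 0.46 or 30.2-fold (adjusted p = 2.16e-06). Gzma behaved less evenly, at 7.67, 7.45 and 10.39 against 12.78, 13.21 and 8.33. Its groups overlapped, because the third array of each group lay towards the other group, and its call (2.94 ± 1.12, adjusted p = 0.045) was lost without the first or second array of either group (2.05 to 2.52, adjusted p = 0.12 to 0.19), whereas the difference was 4.49 without the third continuous array. It was also lost when only the groups compared were fitted (adjusted p = 0.13), under quantile normalization (0.062) and with trend and robust moderation (0.084). Fasl, the ligand that kills through the death receptor Fas, lay at 4.70, 3.93 and 5.71 against 8.92, 9.28 and 7.28, with no overlap (3.71 ± 0.51, adjusted p = 4.85e-05). The list mean was 9.40, 9.49 and 8.58 in the continuous and 7.69 to 8.07 in the unstimulated arrays. For 4 of the 12 rises the CD4 transient arrays lay below all other CD4 arrays, and Gzmb, Gzmk, Gzma and Fasl were not among these 4.

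Most secreted effector molecules were not called. Of 22 measured cytokines and chemokines 6 rose and 3 fell, a share of rises near that of all genes. Ifng, which encodes interferon gamma, lay at 5.21, 6.13 and 5.43 in the unstimulated and 9.65, 12.13 and 10.24 in the continuous arrays. The groups were far apart, with a difference of 5.09 ± 0.61 or 34.0-fold (adjusted p = 1.81e-05). Xcl1, a chemokine that draws cross-presenting dendritic cells, lay at 6.60, 5.91 and 6.38 against 9.26, 10.75 and 10.39 (3.84 ± 0.37, adjusted p = 2.68e-06). Ccl4, a chemokine that attracts other immune cells, lay at 8.23, 6.85 and 7.35 against 9.43, 12.17 and 11.02 (3.40 ± 0.60, adjusted p = 0.00039). Neither chemokine had overlapping groups. Ltb, which encodes lymphotoxin beta, was the largest of the 3 falls, by 1.45 ± 0.32 (adjusted p = 0.0022).

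Receptors shared with natural killer cells were called no more often than genes at large. Of 15 measured killer cell receptors and adaptors 3 rose and 3 fell, beside 21.4% and 25.9% of all genes. Klrc1, which encodes the inhibitory receptor NKG2A, rose by 4.14 ± 0.32 (17.7-fold, adjusted p = 4.52e-07), and Klrk1, which encodes the activating receptor NKG2D, rose by 2.95 ± 0.17 (adjusted p = 5.34e-08). Klrk1 is a gene with low CD4 transient arrays. Klrd1, the partner chain of NKG2A, fell by 1.15 ± 0.32 (adjusted p = 0.0089), Hcst, the signalling adaptor of NKG2D, by 1.98 ± 0.28 (adjusted p = 6.10e-05) and Cd7 by 2.14 ± 0.38 (adjusted p = 0.00042). A receptor and its partner therefore moved in opposite directions in both pairs. Klrg1, a receptor of end-stage effector cells, lay at 6.61, 7.41 and 9.42 against 7.55, 7.35 and 6.14, with no call (adjusted p = 0.41).

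**Figure D2:**
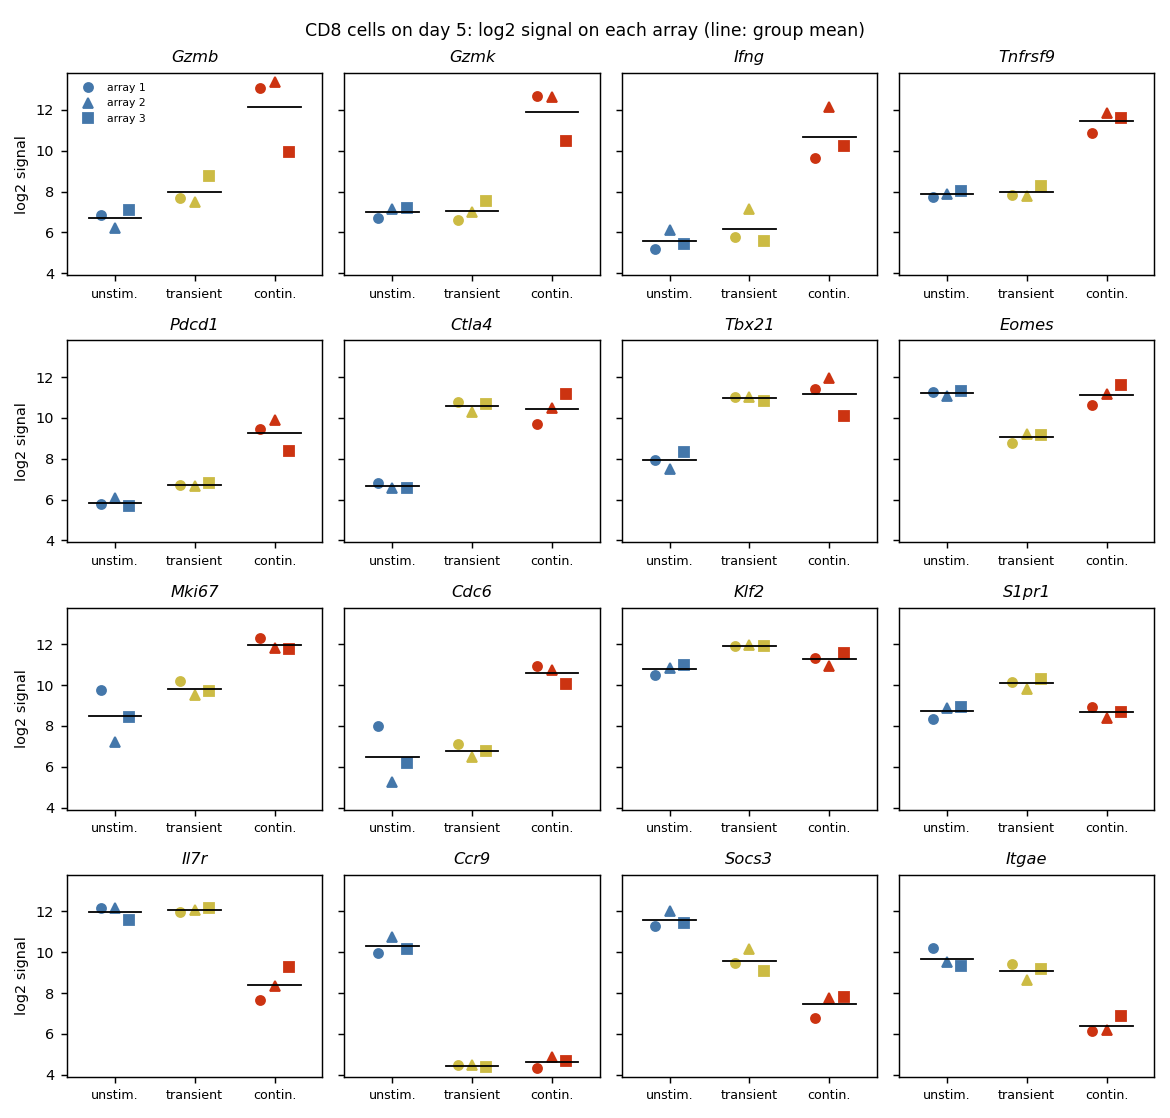
Log2 signals (vertical axes) of named genes are plotted for each CD8 array of day 5, with a panel for each gene, the unstimulated, transient and continuous groups along the horizontal axis, a shape for each array and a line at each group mean. Gzmb is at 6.20 to 7.12 without stimulation and at 9.92 to 13.35 under continuous antigen, and Il7r goes from 11.60 to 12.15 down to 7.64 to 9.26.

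Genes of inhibitory receptors rose as a group. Of 17 measured members 10 rose, 1 fell and 6 were not called, with a median difference of 1.27. Cd200, a surface protein that inhibits myeloid cells, lay at 4.62, 4.62 and 4.71 against 8.74, 9.51 and 9.74. The difference was 4.68 ± 0.28 or 25.6-fold (adjusted p = 6.86e-08), and the CD4 transient arrays of Cd200 were below the other CD4 arrays. Ctla4, which competes with CD28 for its ligands, lay at 6.79, 6.59 and 6.56 against 9.70, 10.49 and 11.16 (3.80 ± 0.31, adjusted p = 7.18e-07). Pdcd1, which encodes PD-1, lay at 5.80, 6.07 and 5.67 against 9.46, 9.92 and 8.38 (3.40 ± 0.41, adjusted p = 1.88e-05). The arrays of the groups were separate for all 3 genes. Lag3, a receptor for MHC class II, rose by 2.13 ± 0.29 (adjusted p = 4.50e-05). Havcr2, which encodes TIM-3, lay at 6.45, 3.96 and 4.02 against 9.58, 9.08 and 5.69. The first unstimulated array of Havcr2 lay above the third continuous one, and its call (3.31 ± 0.88, adjusted p = 0.0071) was lost when only these 2 groups were fitted (adjusted p = 0.052). Cd274, which encodes the PD-1 ligand PD-L1, was the member that fell, by 0.97 ± 0.29 (adjusted p = 0.015), and its CD4 transient arrays lay above the others. The call of Cd274 was lost without the first continuous array (−0.62, adjusted p = 0.073). Tox, a transcription factor tied to exhausted T cells, lay at 6.58 ± 0.33 and 6.80 ± 0.25 with no call (adjusted p = 0.36), although with the mean of its probe sets it was called, at 0.84 (adjusted p = 0.0046). Without its genes whose CD4 transient arrays lay outside the other CD4 arrays, the list kept 13 members, of which 9 rose and none fell.

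Genes that report recent receptor signalling were mostly higher under continuous antigen. Of 20 measured members 11 rose and 1 fell, with a median of 1.18. The member that fell was Egr3, by 0.38 ± 0.12 (adjusted p = 0.021), with separate groups. No member of the list was called lower without the third unstimulated or without the first or the third continuous array. Irf4, a factor induced in proportion to receptor signal, lay at 9.13, 7.08 and 7.55 against 10.81, 11.56 and 10.92 (3.18 ± 0.54, adjusted p = 0.00029). Egr2, an early growth response factor, lay at 7.75, 8.48 and 8.49 against 9.44, 10.98 and 10.73 (2.14 ± 0.40, adjusted p = 0.00067). Nr4a1, an orphan nuclear receptor used as a reporter of antigen contact, lay at 8.37, 7.92 and 7.81 against 8.90, 10.62 and 10.14 (1.85 ± 0.46, adjusted p = 0.0044). In all 3 genes every continuous array lay above every unstimulated one. The list mean was 8.57, 9.43 and 9.51 in the continuous and 8.22, 8.09 and 7.55 in the unstimulated arrays, so the first continuous array was the lowest of its group here. Without the third continuous array the median was 0.77, with 10 rises and no fall, and without the third unstimulated array it was 0.82. Tnfrsf9, which encodes the costimulatory receptor 4-1BB and is induced by receptor signals, lay at 7.74, 7.89 and 8.04 against 10.89, 11.84 and 11.59 (3.55 ± 0.23 or 11.7-fold, adjusted p = 1.40e-07). Its groups were separate, and its CD4 transient arrays lay below the other CD4 arrays.

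Among 23 measured effector and memory transcription factors 11 rose and 1 fell, and for none of the 11 did the CD4 transient arrays lie below all other CD4 arrays. Zbtb32, a zinc finger repressor of activated lymphocytes, lay at 5.89, 5.82 and 5.25 against 10.37, 10.73 and 9.45 (4.53 ± 0.28 or 23.1-fold, adjusted p = 8.10e-08). Tbx21, which encodes T-bet, a driver of effector genes, lay at 7.94, 7.52 and 8.32 against 11.43, 11.96 and 10.11 (3.23 ± 0.36, adjusted p = 7.61e-06). In both genes all continuous arrays lay above all unstimulated ones. Irf8 rose by 2.74 ± 0.52 (adjusted p = 0.00072) and Maf, a factor of helper T cells, fell by 0.54 ± 0.14 (adjusted p = 0.0046). Eomes, the T-box factor related to T-bet, lay at 11.27, 11.06 and 11.31 against 10.61, 11.19 and 11.59, with overlapping groups and no call (−0.08 ± 0.28, adjusted p = 0.82). Its other probe set was called upward, so that the mean of both was 0.67 (adjusted p = 0.046). Prdm1, which encodes Blimp-1, lay at 7.20, 5.33 and 5.55 against 8.16, 7.63 and 5.52 with no call (adjusted p = 0.15). It was called without the first unstimulated (1.67, adjusted p = 0.029) or without the third continuous array (1.87, adjusted p = 0.0049).

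Costimulators with a call mostly rose, while cytokine receptors moved in both directions. Of 21 measured TNF superfamily members and costimulators 8 rose and 1 fell, beside 21.4% and 25.9% of all genes. Tnfsf11, which encodes RANKL, rose by 3.14 ± 0.42 (adjusted p = 3.90e-05), Cd28 by 2.02 ± 0.15 (adjusted p = 3.72e-07), and Tnfrsf25 fell by 1.73 ± 0.37 (adjusted p = 0.0019). Of 23 cytokine receptors 7 rose and 7 fell, beside 21.4% and 25.9% of all genes. Il2ra, whose chain gives the interleukin 2 receptor its high affinity, lay at 4.94, 4.42 and 5.10 against 7.45, 7.87 and 6.89 (2.58 ± 0.39, adjusted p = 0.00012). Its groups did not overlap, and the beta chain Il2rb rose by 1.79 ± 0.34 (adjusted p = 0.00067). The receptor of interleukin 7, the cytokine in which all groups were cultured, went the other way. Il7r lay at 12.15, 12.15 and 11.60 in the unstimulated and 7.64, 8.33 and 9.26 in the continuous arrays. It fell by 3.55 ± 0.69 or 11.7-fold (adjusted p = 0.00087), and every continuous array lay below every unstimulated one. Il10ra rose by 2.54 ± 0.37 (adjusted p = 8.21e-05) and Il18r1 fell by 1.44 ± 0.41 (adjusted p = 0.011), or by 0.76 without the third continuous array, and was not called when only the groups compared were fitted (adjusted p = 0.069). Of 21 brakes of signalling 5 rose and 6 fell, shares near those of all genes. Socs3, which blocks signalling of the interleukin 6 receptor family, lay at 11.28, 12.02 and 11.41 against 6.78, 7.74 and 7.82 (−4.12 ± 0.38, adjusted p = 1.94e-06), and its CD4 transient arrays lay above the other CD4 arrays. Il6ra, the receptor of interleukin 6 itself, fell by 3.92 ± 0.33 (adjusted p = 8.72e-07), and Spry1, a feedback inhibitor, rose by 2.50 ± 0.42 (adjusted p = 0.00028).

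The cell cycle was the group that moved most as a whole. Of 39 measured mitosis genes 38 rose and none fell, with a median of 3.02, and of 34 DNA replication genes 32 rose and none fell, with a median of 1.81. Ccna2, the cyclin of S phase and of entry into mitosis, lay at 8.16, 5.91 and 6.58 against 12.18, 11.69 and 10.80 (4.67 ± 0.50 or 25.5-fold, adjusted p = 6.45e-06). Aurkb, a kinase of chromosome segregation, lay at 6.93, 5.22 and 5.41 against 10.85, 10.26 and 9.12 (4.22 ± 0.53, adjusted p = 2.27e-05). Within the unstimulated group the first array was the highest in both genes, and the groups were separate. Mki67, which encodes the proliferation antigen Ki-67, lay at 9.78, 7.23 and 8.45 against 12.31, 11.81 and 11.76 (3.47 ± 0.50, adjusted p = 7.09e-05). On the replication side Tk1, a thymidine kinase, rose by 4.24 ± 0.52 (adjusted p = 2.01e-05), Cdc6, which loads the replicative helicase, by 4.09 ± 0.51 (adjusted p = 2.25e-05) and Gins1, a subunit of that helicase complex, by 3.61 ± 0.37 (adjusted p = 4.73e-06). Lrr1, which takes part in removing the helicase after replication, rose by 4.90 ± 0.43 or 29.9-fold (adjusted p = 1.12e-06). The mitosis mean was 8.15, 6.62 and 7.10 in the unstimulated arrays, 7.59 to 8.00 in the transient ones and 10.61, 10.09 and 9.46 in the continuous ones. Without the first unstimulated array, which is the highest of its group, all 39 mitosis genes were called and the median was 3.54. The CD4 transient arrays were below the other CD4 arrays for 1 of the 38 mitosis rises and for 8 of the 32 replication rises. In CD4 cells all 39 mitosis and 33 of 34 replication genes rose as well. Between the same conditions the control signals differed there by −0.35 for beta-actin and −0.642 for GAPDH, beside −1.77 and −1.945 in CD8 cells. With the beta-actin difference as a covariate 0 of 39 mitosis genes (limma, median 2.01) and 1 of 34 replication genes (median 1.34) were called in CD8 cells, and the part of the control signal in these rises was not tested.

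Promoters of cell cycle genes are known to hold short sequences read by dedicated factors: CCAAT boxes bound by NF-Y, the cell cycle homology element TTTGAA of genes expressed late in the cycle, and E2F sites in genes of DNA synthesis. Because the mitosis genes rose together, 5 of their promoters are shown, each 300 bases from 250 before to 50 after the start (RefSeq, GRCm38.p6), 5′ to 3′ on the strand of the gene, with CCAAT or its complement ATTGG and TTTGAA or its complement TTCAAA in capitals. Spag5, a spindle protein, is at chr11:78301341-78301640 on the plus strand, Plk1, a mitotic kinase, at chr7:122159185-122159484 plus, Ccnb2, a mitotic cyclin, at chr9:70421505-70421804 minus, Mki67 at chr7:135716330-135716629 minus and Birc5, an inhibitor of apoptosis that guides chromosome segregation, at chr11:117848987-117849286 plus. Spag5 and Mki67 follow from the rule for named genes. Plk1, Ccnb2 and Birc5 have the next largest rises among the mitosis genes considered and were chosen after their values were seen. Considered were the mitosis genes in the promoter table, apart from those on a single chromosome, which were left out before the ranking.
Spag5: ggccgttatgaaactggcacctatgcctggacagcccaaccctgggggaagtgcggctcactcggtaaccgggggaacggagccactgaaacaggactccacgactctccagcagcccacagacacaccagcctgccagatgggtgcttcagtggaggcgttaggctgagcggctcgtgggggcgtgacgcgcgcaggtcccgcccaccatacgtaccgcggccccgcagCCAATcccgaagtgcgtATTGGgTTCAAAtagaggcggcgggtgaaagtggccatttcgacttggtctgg
Plk1: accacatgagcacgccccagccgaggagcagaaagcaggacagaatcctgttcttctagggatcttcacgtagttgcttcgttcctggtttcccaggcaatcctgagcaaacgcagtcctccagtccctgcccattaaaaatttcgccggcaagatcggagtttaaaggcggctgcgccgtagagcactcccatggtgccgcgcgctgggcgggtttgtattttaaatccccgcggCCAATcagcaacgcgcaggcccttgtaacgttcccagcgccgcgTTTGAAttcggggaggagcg
Ccnb2: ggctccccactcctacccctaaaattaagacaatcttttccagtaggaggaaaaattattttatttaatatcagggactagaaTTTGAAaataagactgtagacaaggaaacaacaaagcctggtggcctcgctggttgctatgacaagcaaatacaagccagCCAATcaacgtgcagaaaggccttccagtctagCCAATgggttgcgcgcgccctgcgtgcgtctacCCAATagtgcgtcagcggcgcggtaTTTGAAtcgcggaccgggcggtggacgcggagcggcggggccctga
Mki67: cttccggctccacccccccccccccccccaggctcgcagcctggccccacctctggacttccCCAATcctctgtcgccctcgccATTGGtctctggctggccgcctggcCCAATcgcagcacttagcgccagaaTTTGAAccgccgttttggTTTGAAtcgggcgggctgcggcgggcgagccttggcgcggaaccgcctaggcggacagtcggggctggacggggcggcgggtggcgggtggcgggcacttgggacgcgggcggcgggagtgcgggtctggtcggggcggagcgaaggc
Birc5: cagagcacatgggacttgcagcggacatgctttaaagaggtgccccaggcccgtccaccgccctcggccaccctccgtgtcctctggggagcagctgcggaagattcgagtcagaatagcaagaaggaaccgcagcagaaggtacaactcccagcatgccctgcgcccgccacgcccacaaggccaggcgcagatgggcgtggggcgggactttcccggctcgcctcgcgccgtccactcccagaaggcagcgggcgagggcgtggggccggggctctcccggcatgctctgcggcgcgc
The promoters of Spag5 and Plk1 hold both elements, with 2 and 1 CCAAT boxes and 1 TTTGAA each. Those of Ccnb2 and Mki67 hold 3 CCAAT boxes and 2 TTTGAA each, and that of Birc5 holds neither spelling in this window. All 5 genes rose: Spag5 by 4.04 ± 0.41 (adjusted p = 4.17e-06), Plk1 by 3.87 ± 0.44 (adjusted p = 1.04e-05), Ccnb2 by 3.80 ± 0.47 (adjusted p = 2.01e-05) and Birc5 by 3.61 ± 0.51 (adjusted p = 6.12e-05). Plk1 lay at 7.66, 6.90 and 7.29 against 12.09, 11.43 and 9.93, and Birc5, without either element, at 8.16, 6.23 and 6.88 against 11.29, 10.82 and 9.99, so both had separate groups. A promoter was found for 32 of the 38 mitosis genes that rose. Of these 24 (75.0%) held CCAAT and 22 (68.8%) held TTTGAA on either strand, and 19 (59.4%) held both. Among all 27025 promoters of the table the shares were 37.9%, 18.1% and 7.12%. Of the 27 replication genes that rose and had a promoter, 16 (59.3%) held CCAAT and 3 (11.1%) TTTGAA, while 8 (29.6%) held one of the E2F spellings TTTCCCGC and TTTGGCGC, against 1.63% of all promoters, 2.67% of the 9887 promoters of genes tested and 0 of the 32 mitosis promoters. Among the promoters of genes tested 38.1% held CCAAT, 13.0% TTTGAA and 5.16% both. A match describes letters in a window and not a bound site.

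Growth and metabolism rose more unevenly. Among all called rises 56.5% had low CD4 transient arrays, and the counts of such members here and in the next paragraph stand beside that share. Of 16 glycolysis genes 11 rose and 2 fell, with a median of 1.28. Pkm, the pyruvate kinase of growing cells, lay at 8.63, 8.74 and 8.73 against 12.55, 11.83 and 11.59 (3.29 ± 0.27 or 9.77-fold, adjusted p = 7.08e-07). The groups were separate, and Pkm had low CD4 transient arrays, as did 7 of the 11 rises. Tpi1, triose phosphate isomerase, which did not, lay at 9.98, 9.94 and 10.40 against 12.60, 12.16 and 11.41 (1.95 ± 0.30, adjusted p = 0.00015). Pdk1, which inhibits pyruvate dehydrogenase, was the largest fall of this list, by 2.47 ± 0.25 (adjusted p = 3.46e-06). Of 17 amino acid and one-carbon genes 10 rose and 1 fell, and 4 of the 10 had low CD4 transient arrays. Bcat1, a branched-chain aminotransferase, lay at 5.77, 4.73 and 5.29 against 10.04, 10.08 and 9.31 (4.54 ± 0.29 or 23.3-fold, adjusted p = 1.19e-07). Asns, asparagine synthetase, lay at 6.06, 5.24 and 4.68 against 10.03, 10.11 and 9.16 (4.44 ± 0.38, adjusted p = 1.01e-06). For Bcat1 and Asns the arrays of the groups were separate and the CD4 transient arrays lay within the range of the others. Of 24 sterol and fatty acid genes 12 rose and 2 fell. Cyp51, a demethylase of cholesterol synthesis, rose by 2.34 ± 0.23 (adjusted p = 3.06e-06) and Sc5d by 2.32 ± 0.27 (adjusted p = 1.38e-05). Of these 12 rises 10 had low CD4 transient arrays, and of the 10 members of this list that lie within the other CD4 arrays 2 rose and 2 fell.

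Genes for building ribosomes and for folding and degrading protein also rose in part, whereas ribosomal proteins did not. Of 24 ribosome biogenesis genes 15 rose and none fell, with a median of 0.64, and 10 of the 15 had low CD4 transient arrays. Nop58, a protein of small nucleolar particles, lay at 8.69, 9.16 and 9.01 against 11.59, 11.67 and 11.49 (2.63 ± 0.27, adjusted p = 4.13e-06), and Ncl, nucleolin, rose by 1.57 ± 0.13 (adjusted p = 8.24e-07). Both had separate groups and low CD4 transient arrays. Against the transient CD8 arrays, where the beta-actin difference was −0.37, 20 of the 24 were higher under continuous antigen, and in CD4 cells 1 rose and 1 fell. Of 28 proteasome subunits 17 rose and 1 fell, with low CD4 transient arrays in 13 of the 17. Psmb7, a catalytic subunit, lay at 7.18, 7.51 and 7.60 against 12.54, 12.20 and 11.95 (4.80 ± 0.17 or 27.9-fold, adjusted p = 2.42e-09). In the transient CD8 arrays Psmb7 was 11.24 to 11.40, and in CD4 cells its mean was 11.16 unstimulated, 7.19 transient and 12.14 continuous. The groups where it was low are those with a high beta-actin difference, but they also differ in treatment or lineage from the others. The part of the control signal in its values was not tested. Psmc5 and Psma4 rose by 3.42 ± 0.23 and 2.26 ± 0.12 (adjusted p = 1.55e-07 and 3.31e-08), also with low CD4 transient arrays. Of the 9 proteasome genes within the other CD4 arrays, 4 rose and none fell. In the unfolded protein response, 12 of 22 rose and 2 fell, with low CD4 transient arrays in 7 of the 12. Pdia3, a disulfide isomerase, rose by 2.74 ± 0.30 (adjusted p = 7.36e-06), Calr, calreticulin, by 1.91 ± 0.11 (adjusted p = 7.58e-08) and Sdf2l1 by 1.96 ± 0.37 (adjusted p = 0.00072), of which Sdf2l1 lay within the other CD4 arrays. Ddit3, the death-linked factor of this response, fell by 1.05 ± 0.21 (adjusted p = 0.00088). Of 30 respiratory chain genes 17 rose and 3 fell, with low CD4 transient arrays in 12 of the 17. Among them Sdhd rose by 2.23 ± 0.14 (adjusted p = 1.30e-07) and Atp5b by 1.31 ± 0.18 (adjusted p = 4.17e-05). Of 24 cytosolic ribosomal proteins, 2 rose and 10 fell.

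**Figure D3:**
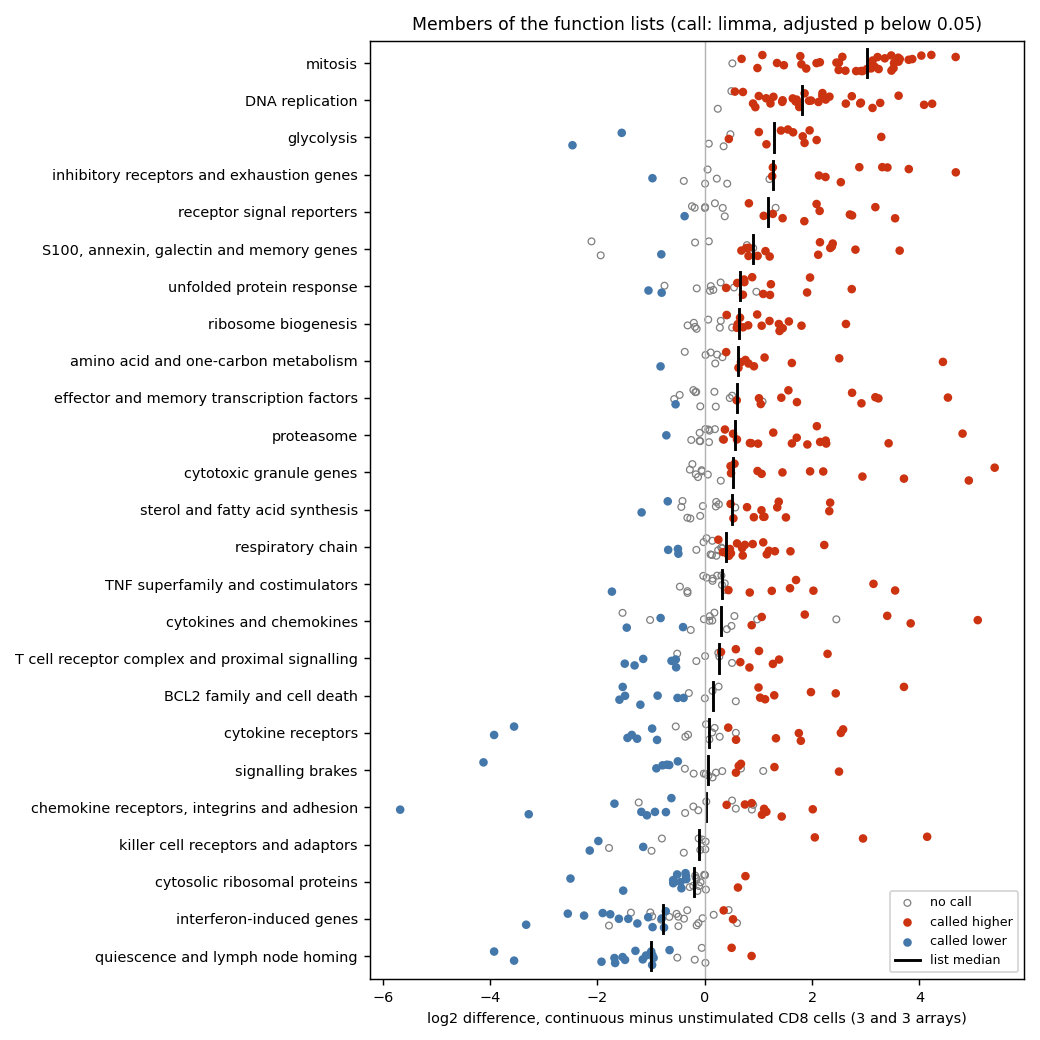
Each point is one measured member of a gene list, placed by its log2 difference between continuous and unstimulated CD8 arrays (horizontal axis) in the row of its list, open where there was no call, red where called higher and blue where called lower, with a black bar at the list's median. All 39 mitosis genes lie above 0, with a median of 3.02, while quiescence genes have a median of −0.998.

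Genes of the resting state fell. Of 21 measured quiescence and lymph node homing genes 15 fell and 2 rose, with a median of −0.998. Beside Il7r and Il6ra, Txnip, which restrains glucose uptake, lay at 12.06, 11.89 and 11.89 against 9.57, 9.80 and 10.69 (−1.92 ± 0.23, adjusted p = 1.91e-05). Ccr7, the receptor that leads T cells into lymph nodes, lay at 10.20, 10.54 and 10.67 against 8.11, 8.56 and 9.70 (−1.68 ± 0.29, adjusted p = 0.00036), and Bcl2, a survival protein, fell by 1.49 ± 0.23 (adjusted p = 0.00016). The third continuous array was the highest of its group in Il7r, Il6ra, Txnip, Ccr7 and Bcl2, and yet below every unstimulated array. The list mean was 9.05, 9.31 and 10.15 in the continuous and 10.46 to 10.77 in the unstimulated arrays. Without the third continuous array 16 members fell and none rose, and without the first unstimulated array 14 fell and none rose. Klf2, a factor that drives the receptors for leaving lymph nodes, was called upward (10.79 ± 0.26 against 11.29 ± 0.34, adjusted p = 0.037), as was Lef1 (7.11 ± 0.74 against 7.98 ± 0.27, adjusted p = 0.029). Both have low CD4 transient arrays, and neither call was kept without the first unstimulated, the first continuous or the third continuous array (Klf2 0.35 to 0.47, Lef1 0.46 to 0.88), nor that of Klf2 without the second unstimulated array (0.54, adjusted p = 0.057). The call of Klf2 was also lost under median centring and under quantile normalization, and that of Lef1 under the latter. S1pr1, the exit receptor itself, lay at 8.72 ± 0.33 and 8.66 ± 0.27 with no call (adjusted p = 0.86).

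The largest falls belong to several functions. Ccr9, the receptor for the gut and thymus chemokine CCL25, lay at 9.97, 10.77 and 10.17 in the unstimulated and 4.35, 4.89 and 4.66 in the continuous arrays, a difference of −5.67 ± 0.40 or 51.1-fold (adjusted p = 2.64e-07). The transient arrays, at 4.37 to 4.48, lay within the range of the continuous ones. Igfbp4, a binding protein of insulin-like growth factors, lay at 11.76, 12.02 and 12.16 against 7.09, 7.46 and 8.09 (−4.44 ± 0.49 or 21.6-fold, adjusted p = 8.01e-06). Tdrp fell by 4.17 ± 0.50 (adjusted p = 1.63e-05), Rab6b, a small GTPase of vesicle transport, by 3.79 ± 0.36 (adjusted p = 2.16e-06) and Rflnb by 3.65 ± 0.44 (adjusted p = 1.59e-05). Afp, annotated as alpha-fetoprotein, fell by 3.67 ± 0.40 (adjusted p = 7.76e-06). Acss2, which makes acetyl-CoA from acetate, fell by 3.53 ± 0.25 (adjusted p = 3.01e-07). All of these genes had separate groups, and among them Afp and Acss2 had CD4 transient arrays above all other CD4 arrays. St6gal1, a sialyltransferase, lay at 12.61, 12.76 and 12.70 against 8.14, 9.11 and 12.34. Its fall (−2.82 ± 0.70, adjusted p = 0.0048) came mostly from the first and second continuous arrays, and was not called when only the groups compared were fitted (adjusted p = 0.054).

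Of 32 measured interferon-induced genes 13 fell under continuous antigen, 2 rose and 17 were not called, with a median of −0.78. Oasl2, an antiviral gene, lay at 7.65, 6.56 and 9.15 against 4.60, 4.10 and 4.68 (−3.33 ± 0.60, adjusted p = 0.00047). Ifit3, which binds antiviral signalling proteins, lay at 9.48, 9.41 and 11.68 against 7.45, 7.74 and 7.73 (−2.55 ± 0.65, adjusted p = 0.0057). In both genes the third unstimulated array was the highest, and all unstimulated arrays lay above all continuous ones. Without that array 11 members fell and 2 rose, with a median of −0.49. The 2 that rose, Psmb8 and Psmb9, encode subunits of the immunoproteasome and stand in the proteasome list too. In the same arrays the Ifng signal was 34.0-fold higher.

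Genes linked to memory T cells were for the most part higher than in unstimulated cells, while those of migration went both ways. Of 21 S100, annexin, galectin and memory genes 14 rose and 1 fell, with a median of 0.90. Anxa2, an annexin of membrane repair, lay at 9.69, 8.18 and 8.64 against 12.86, 12.92 and 11.63 (3.63 ± 0.45 or 12.4-fold, adjusted p = 2.26e-05), with separate groups. S100a6, a calcium-binding protein, lay at 9.41, 7.30 and 6.97 against 10.61, 10.56 and 9.65 (2.38 ± 0.53, adjusted p = 0.0024). Lgals3, galectin-3, lay at 10.25, 5.65 and 7.19 against 11.69, 11.53 and 8.28. Its groups overlapped, and its call (2.81 ± 1.07, adjusted p = 0.045) was lost without the second or the third unstimulated or the first or second continuous array (1.78 to 2.56, adjusted p = 0.12 to 0.19). The first unstimulated array, with the myeloid and neutrophil signal given above, was the highest of its group in all 3 genes and in the list mean (10.82 against 9.00 and 9.26). Without it 16 of the 21 rose and 1 fell, with a median of 1.29. Emp3, a membrane protein, was the member that fell, by 0.81 ± 0.12 (adjusted p = 7.29e-05). Against the transient CD8 arrays 1 of the 21 was higher and 2 were lower, with a median of −0.096. Of all genes 13.6% were higher and 13.6% lower in that comparison, so the rise of this list was not particular to continuous antigen. Among 25 chemokine receptors, integrins and adhesion genes 8 rose and 8 fell, beside 21.4% and 25.9% of all genes. Itgb1, the beta-1 integrin of tissue adhesion, rose by 2.01 ± 0.29 (adjusted p = 7.09e-05), Itgal, the alpha chain of LFA-1, by 1.43 ± 0.16 (adjusted p = 1.13e-05) and Cxcr3, a receptor for inflamed tissue, by 1.06 ± 0.26 (adjusted p = 0.0041). Itgae, the alpha chain of CD103, which holds T cells in epithelia, lay at 10.23, 9.50 and 9.34 against 6.16, 6.20 and 6.86 and fell by 3.28 ± 0.28 (adjusted p = 8.87e-07). Its groups were separate. Of 20 genes of the T cell receptor complex and its proximal signalling 8 rose and 6 fell, beside the same shares of all genes. Zap70, the kinase recruited to the receptor, was the largest rise, at 2.29 ± 0.21 (adjusted p = 1.69e-06), and 7 of the 8 rises, Zap70 among them, had low CD4 transient arrays. Against the transient CD8 arrays 0 of these 20 genes were higher and 7 were lower. Of 19 genes of the BCL2 family and cell death 7 rose and 7 fell, again beside 21.4% and 25.9% of all genes. Casp4, an inflammatory caspase, was the largest rise of that list after Fasl (2.44 ± 0.28, adjusted p = 1.23e-05).

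**Figure D4:**
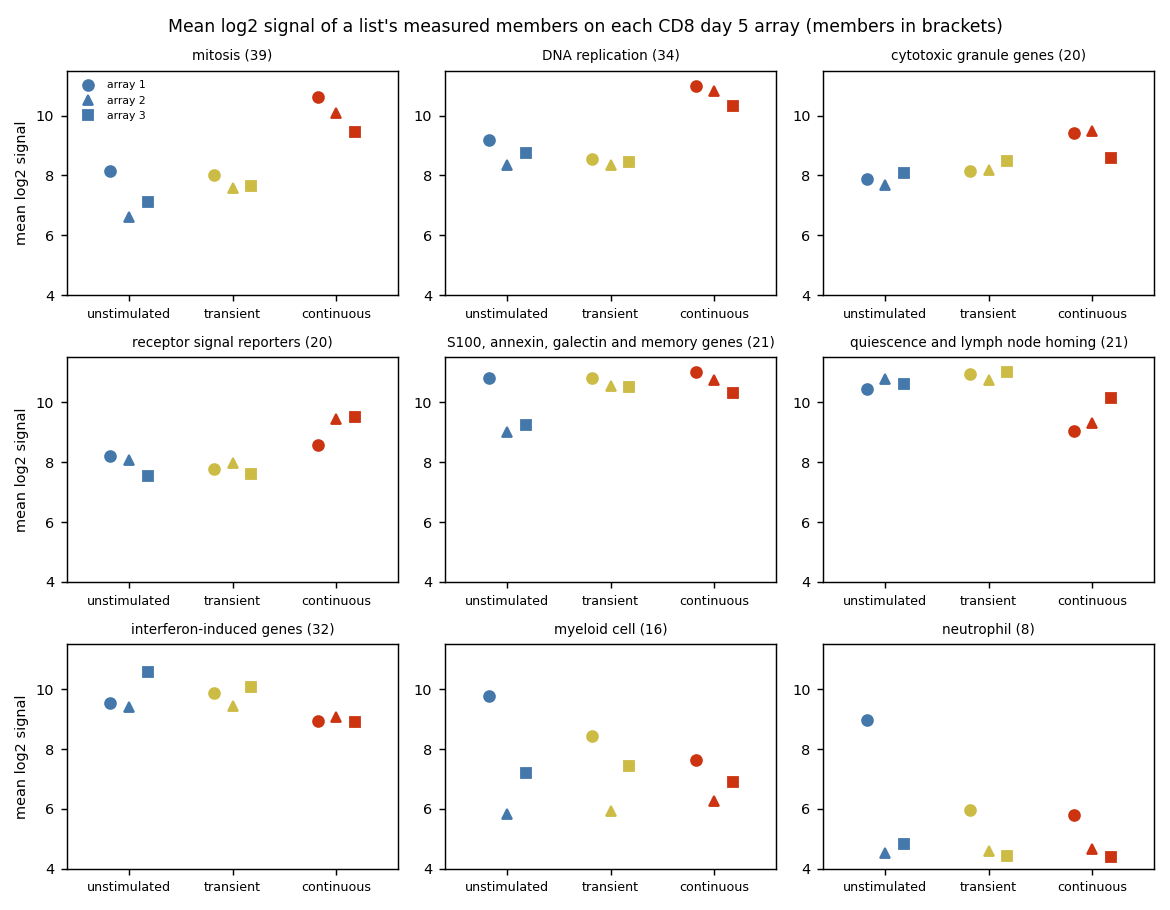
The mean log2 signal of the members of each list (vertical axes) is plotted for each CD8 array of day 5, in the unstimulated, transient and continuous groups, with a shape for each array. The first unstimulated array is highest for the myeloid list, at 9.76, the third unstimulated array for the interferon list, at 10.57, and the third continuous array lies between its group and the unstimulated arrays for the quiescence list, at 10.15.

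Whether a difference belonged to the last 3 days in the host was asked by setting the continuous against the transient arrays, which had the same culture. The control signals differ less between these groups, by −0.37 for beta-actin and −0.52 for GAPDH, but they do not overlap here either (beta-actin 0.656 to 1.02 in transient and 0.312 to 0.557 in continuous arrays). With the GAPDH difference as a covariate 171 genes were called in place of the 3376 below, and with the beta-actin difference 2248, and the part of the control signal in these calls was not tested. These comparisons share the continuous arrays, so that the values below stand beside those above and are no independent support for them. At an adjusted p below 0.05, 3376 genes differed (27.2%), 1686 higher (13.6%) and 1690 lower (13.6%) under continuous antigen. The 6 largest differences upward were Gzmk (4.88 ± 0.46, adjusted p = 1.88e-05), Ifng (4.51 ± 0.61, adjusted p = 0.00016), Lrr1, Marcksl1, Gzmb (4.13 ± 0.69, adjusted p = 0.00063) and Ccl4. In Gzmk and Ifng the transient arrays lay at 6.59 to 7.56 and 5.76 to 7.13, below every continuous array. The 6 largest downward were Rflnb (−3.80 ± 0.44, adjusted p = 4.82e-05), Il7r (−3.66 ± 0.69, adjusted p = 0.0015), Tdrp, Il6ra, St6gal1 and Igfbp4, and the transient arrays of Il7r lay at 11.99 to 12.15. All 34 replication genes and 38 of 39 mitosis genes were higher, and 18 of 21 quiescence genes lower, than in transient cells. For Ctla4 the difference was −0.13 ± 0.31 (adjusted p = 0.82), with transient arrays at 10.31 to 10.76 among the continuous ones, and for Klrk1, Tbx21 and Plscr1 it was 0.04 ± 0.17, 0.21 ± 0.36 and 0.67 ± 0.29 (adjusted p = 0.91, 0.74 and 0.11). Eomes, with no call against unstimulated cells, was 2.08 ± 0.28 higher than in transient cells (adjusted p = 0.00016), whose arrays lay at 8.76 to 9.23. S1pr1 fell by 1.42 ± 0.23 against transient cells (adjusted p = 0.00057).

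CD4 cells in the same conditions share no array with the CD8 cells, but they also have another receptor and another antigen. In CD4 cells 2570 genes were called (20.7%), 1229 higher (9.92%) and 1341 lower (10.8%). Of the 2658 CD8 rises 890 also rose in CD4 cells, which is 33.5% of the CD8 and 72.4% of the CD4 rises, and 104 fell there. Of the 3209 CD8 falls 794 fell in CD4 cells as well (24.7% of the CD8 and 59.2% of the CD4 falls). The difference of the differences was called for 2445 genes (19.7%), 1396 higher (11.3%) and 1049 lower (8.46%) in CD8 cells. Among the CD8 rises 1144 were larger than in CD4 cells, and for 918 of these (80.2%) the CD4 transient arrays lay below the other CD4 arrays. The part of the control signal in this share was not tested. Tnfrsf9 rose by 3.55 in CD8 cells and had a difference of −0.77 in CD4 cells, Fasl 3.71 and −0.34, and Xcl1 3.84 and −0.09, and the differences between lineages were 4.31 ± 0.35, 4.05 ± 0.76 and 3.92 ± 0.56 (adjusted p = 1.18e-05, 0.0024 and 0.0004). Fasl and Xcl1 had CD4 transient arrays within the others. In the other direction Nkg7, a granule membrane protein, lay at 12.89 ± 0.08 in unstimulated CD8 cells already and rose by 0.48 (0.37 without the second continuous array, not called, adjusted p = 0.055), against 5.69 in CD4 cells (difference −5.21 ± 0.20, adjusted p = 1.11e-08). Il21, a helper cytokine, lay at 3.66 ± 0.13 and 3.64 ± 0.22 in CD8 cells and was 6.44 higher in CD4 cells under continuous antigen (difference −6.46 ± 0.41, adjusted p = 2.62e-06). Ccr9 and Itgae fell in CD8 cells and differed by 0.85 and 0.03 in CD4 cells (differences −6.52 ± 0.60 and −3.31 ± 0.42, adjusted p = 2.35e-05 and 0.00017). In unstimulated CD4 cells the means of both genes were already low, at 4.64 and 6.05. The continuous CD8 means were 4.63 and 6.41, so these lineage differences go with a high signal in unstimulated CD8 cells only. For Gzmb, Gzmk and Ifng the lineages did not pass the test of a difference (−2.05 ± 1.03, 0.41 ± 0.70 and −0.74 ± 0.92, adjusted p = 0.19, 0.72 and 0.62).

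**Figure D5:**
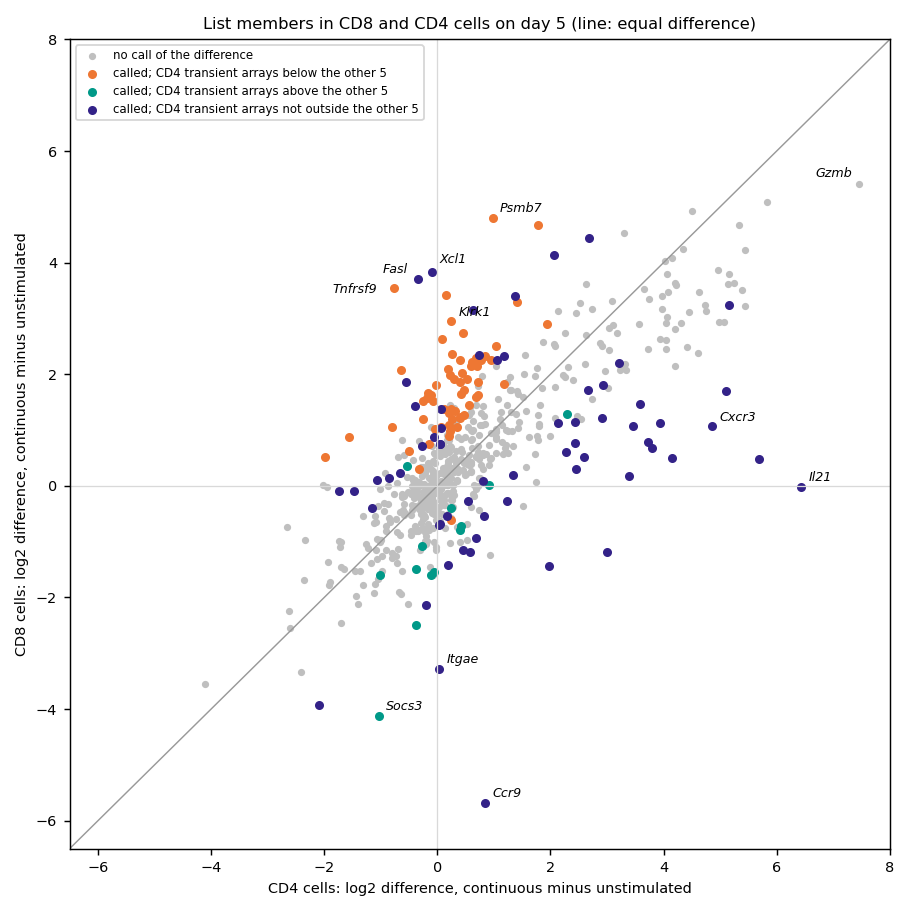
Each point is a list member, placed by its log2 difference between continuous and unstimulated cells in CD4 cells (horizontal axis) and in CD8 cells (vertical axis), in grey where the difference between the lineages was not called and otherwise coloured by where the CD4 transient arrays lie; the line marks equal differences. Ccr9 has a negative difference in CD8 cells only, at −5.67 against 0.85, Il21 is at −0.02 against 6.44, and Psmb7, at 4.80 against 0.98, is among the points with low CD4 transient arrays.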

How the data were processed

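Per the submitters' processing notes the authors made the deposited log2 signals with RMA, in a version not given in the sources used here. Probe positions were not used. All 28 arrays and 22690 probe sets were in the table. Left out were 64 control probe sets (used only for the 3' minus 5' differences), 691 with several gene symbols and 1555 with none, and 1 gene is not reported here. The other 20380 were named by the platform annotation, updated through Entrez numbers (20351 matched, RefSeq genes of GRCm38.p6), giving 12393 genes. Of these 4956 had more than 1 probe set and took the one with the highest mean over all arrays; in 580 of them (11.7%) probe sets were called in opposite directions, as were those of 494 of the 2635 called genes with several probe sets (18.7%). The 16 day 5 arrays were fitted with limma 3.58.1 in R 4.3.3, with 6 group means and 10 residual degrees of freedom. P-values, two-sided, were adjusted over 12393 genes by Benjamini and Hochberg. The number of arrays limits the precision. Data were simulated for the same design with independent normal noise per gene, 100 genes changed by 1 log2 unit and 100 by 3. Of these changes 81% and 99% were called, with 6 false calls. The simulation held no outlying array and no difference in control signal, so it says nothing about these. The comparison, the 25 function and 13 marker lists, and the alternatives were chosen with earlier results of these data known. Named genes are the 10 largest rises and falls with separate arrays, up to 3 called members per list and direction, fixed T cell genes (Tcf7 is not analysed here), and the 6 largest per direction of the other contrasts. Promoters came from the RefSeq table of GRCm38.p6.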

Additional observations from a re-analysis of the deposited data

Results flagged for a closer look

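12 genes stood out because the difference between continuous and unstimulated cells was itself different between CD8 and CD4 cells, as the 6 largest called differences in each direction. In the fit of all 28 arrays 9 of these 12 calls were lost. With the beta-actin difference as a covariate 6 of the 12 were lost. Higher in CD8 cells were Tnfrsf9 (4.31), Lad1 (4.26), Fasl (4.05), Xcl1 (3.92), Phpt1 (3.87) and Pdlim4 (3.86, all on the log2 scale). Of these Tnfrsf9, Fasl, Xcl1 and Phpt1 rose in CD8 cells, whereas Lad1 and Pdlim4 had CD8 differences of 0.43 and −0.53 without a call and CD4 differences of −3.83 and −4.38. The CD4 transient arrays, which have a high beta-actin difference, lay below all other CD4 arrays for Tnfrsf9 and Phpt1. Lower in CD8 cells were Ccr9 (−6.52), Il21 (−6.46), Nkg7 (−5.21), Plac8 (−4.72), Frmd4b (−4.44) and Cxcr6 (−4.18). Ccr9 fell in CD8 cells (−5.67), Frmd4b and Cxcr6 fell there by less (−1.25 and −1.18, with the calls lost without the first or the third unstimulated or the third continuous array for Frmd4b and without the second continuous array for Cxcr6, and both lost with the mean of probe sets, at −0.33 and −0.48, adjusted p = 0.25 and 0.26, that of Frmd4b also when only the groups compared were fitted, adjusted p = 0.053) and were 3.20 and 3.00 higher in CD4 cells, and Il21, Nkg7 and Plac8 were 6.44, 5.69 and 3.51 higher in CD4 cells. The unstimulated CD4 group holds 2 arrays. Its mean for Ccr9 was 4.64, near the continuous CD8 mean of 4.63.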

How the results depend on the processing

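The count of 5867 called genes became 9365 (4479 up, 4886 down) over all 20380 probe sets, 2096 at a change of at least 1 log2 unit, 1084 in a fit of all 28 arrays and 2647 of 7820 genes without those whose CD4 transient arrays lie outside the other CD4 arrays. It became 132 with the beta-actin and 0 with the GAPDH difference as a covariate (1818 and 1049 at an unadjusted p below 0.05); with beta-actin 983 of the 5867 (16.8%) changed sign, with GAPDH 1863 (31.8%). The GAPDH covariate and the set without outside genes were chosen after seeing the data. Leaving out 1 array gave 4886 to 5643. Against transient cells the 3376 became 5401, 1088 and 360 for the first 3 of these settings in that order and 1899 without the outside genes, 2248 and 171 with the covariates, 5135 with array weights, 2150 at an adjusted p below 0.01, and 2391 to 3631 with 1 array left out. The 2445 lineage differences became 3889, 1232, 17, 552, 139 and 29 (in the order of the first comparison), 1197 at 0.01, and 1491 to 2443 with 1 array left out, the lowest without the first CD4 unstimulated array. The other alternatives (probe set means, a filter on low genes, a trend, only the groups compared, quantile and median scaling, array weights for the CD8 and lineage counts) stayed within 1.5 times. The replicate numbers gave correlations of 0.16, 0.21 and −0.16 and do not pair the arrays; a replicate block gave 5784 calls, 3375 against transient and 2384 between lineages, and the call of Gzma was lost with it (adjusted p = 0.064). Among 114 named genes 1845 of 2017 values stayed on their side of the threshold, 157 lost the call, 8 gained it and 7 changed sign: with the beta-actin covariate Gzma (−6.25), Cd274 (0.066), Atp5b (−0.45), Klf2 (−0.16), Lef1 (−0.97) and Lgals3 (−0.33), and with the mean of its probe sets Eomes (0.67). Most of the 157 losses came from 1 setting: with the beta-actin covariate 91 of the 114 genes lost the call. Of the 104 named called genes 7 kept the call in the same direction with beta-actin and 0 with GAPDH. With the GAPDH covariate 41 of the 104 changed sign. The cause of these changes was not tested.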
